A study of Mus musculus with 106 samples.

Results

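The genes described here are 8 genes that restrain the growth kinase mTOR when cells are under stress: Ddit4l, Ddit4, Sesn1, Sesn2, Sesn3, Deptor, Tsc1 and Tsc2. They were selected from these data, because Ddit4l had the lowest log2 fold change of the genes called in Gad2 neurons of the cerebrum of Huntington's disease (HD) mice, and the other 7 were added for their known place in the same pathway. They are 8 of 55401 mouse genes in the deposited count table, of which 21897 are protein-coding. Their values in HD and control Gad2 libraries of the cerebrum are therefore given as a description without a test, and tests are given for the other libraries.

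mTOR complex 1 is a protein kinase that drives translation, ribosome production and cell growth, and that holds back autophagy, when nutrients and growth factors are present. The TSC complex, built on hamartin (Tsc1) and tuberin (Tsc2), switches off Rheb, the small GTPase that activates the kinase; REDD1 (Ddit4) and its relative REDD2 (Ddit4l) are induced by stress and act through the TSC complex, the sestrins (Sesn1, Sesn2, Sesn3) relay amino acid shortage and stress to the Rag GTPases, and DEPTOR binds the kinase itself. In neurons this pathway is known for its part in synaptic plasticity and in the clearance of protein aggregates.

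The study used RiboTag, in which Cre recombinase switches on an HA-tagged form of the ribosomal protein Rpl22, so that ribosomes of 1 cell class and their mRNA can be immunoprecipitated (IP) from a tissue homogenate. HD mice were heterozygous knock-in Hdh Q7/Q200 animals, and control mice were Hdh Q7/Q7 littermates. The methods place all mice on the 129S4 background. By the methods, mice of the Gad2-IRES-Cre, PV-IRES-Cre and vGluT2-IRES-Cre lines carried 1 copy each of the Rpl22-HA allele and the Cre driver, and were about 9 months old. The SST line named in the labels is not described there. The cerebrum was taken without the olfactory bulb and apart from the cerebellum, and total RNA of the homogenate served as input. There were 67 IP and 39 total RNA libraries from 45 mice, with 6 control and 6 HD IPs for Gad2 in the cerebrum, 6 and 5 for PV, 5 and 4 for SST, 6 and 6 for vGluT2 in the cerebrum, 6 and 6 for Gad2 in the cerebellum, and 5 and 6 for vGluT2 in the cerebellum. Input groups held 3 or 4 libraries. By the labels, 1 HD library each of the PV, cerebral vGluT2 and cerebellar Gad2 IPs came from a second sequencing run. No control library did, and the methods give that run longer reads. A PV library was pooled from duplicate IPs of the same homogenate, and Cre follows the whole history of a cell, so that a line can also mark cells that expressed the driver earlier.

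Most defining markers followed the line labels in controls, with mixing. Mean Gad2 levels in CPM, the reads of a gene per fixed total of reads in a library after TMM scaling, were 418 in the Gad2 IPs of the cerebrum, 265 in PV IPs and 343 in SST IPs, against 20.8 in the vGluT2 IPs of the cerebrum. Sst stood at 1326 CPM in SST IPs and Pvalb at 615 CPM in PV IPs. Slc17a7, a marker of glutamatergic neurons, was at 2061 CPM in the vGluT2 IPs of the cerebrum but also at 830 CPM in PV IPs and 785 CPM in SST IPs. Slc17a6, the gene of the vGluT2 driver itself, was at 114 CPM in the vGluT2 IPs of the cerebrum, above their total RNA (33.1 CPM) and the Gad2 IPs (18.3 CPM) but below PV (117 CPM) and near SST IPs (106 CPM). In the cerebellum it was at 45 CPM in vGluT2 and 4.31 CPM in Gad2 IPs.

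Some libraries stood apart from their labels or groups. In 3 of 36 mice with more than 1 library, all of them vGluT2-line controls, the libraries disagreed in Y-linked transcripts, so that the libraries of each cannot all be from the mouse on their labels. HD PV replicate 3 held 4416 CPM of 5 Purkinje cell markers, where the other HD PV IPs held 579 to 721 CPM, and control PV replicate 2 held 1949 CPM. Total RNA libraries differed in the balance of long and short genes, taken as the mean log2 of CPM plus 1 over the longest 25% of 14800 genes minus that over the shortest 25%. In the cerebellum of the vGluT2 line this balance was 1.21 to 1.45 in 4 control libraries and 0.40 to 0.78 in 4 HD libraries, with no overlap, and across the 14 cerebellar total RNA libraries it had an absolute Pearson r of 0.975 with a first principal component that held 63.3% of the variance. In the 25 total RNA libraries of the cerebrum these values were 0.97 and 64.1%. Levels are given with all libraries, and for the calls below the text says which were lost without the 3 mice.

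Ddit4l, the gene of REDD2, set the choice of the list. In the Gad2 IPs of the cerebrum its lowest, median and highest level was 10.4, 11.6 and 13.3 CPM in 6 control libraries and 2.34, 2.77 and 5.02 CPM in 6 HD libraries. All 6 HD libraries lay below all 6 control libraries, and HD replicate 4, at 5.02 CPM, stood above the other 5, which reached 3.04 CPM. The log2 fold change was −1.95, the eighth lowest of 14342 genes tested and the lowest of 4 genes called at an adjusted p of 0.05 or less (0.0279% of genes tested). Next to it inside that call were Arpp19 (−1.02), Arpp21 (−0.78) and Rgs4 (−0.78), while the genes with a lower fold change than Ddit4l were not called. The summed level of 10 markers of striatal projection neurons was 5442 to 7166 CPM in these control and 3297 to 5293 CPM in these HD libraries, with no overlap, with Ppp1r1b the most abundant and none at 0. The 5 microglial markers, led by Csf1r with none at 0, had a median log2 fold change of 0.84 and sums of 55.8 to 130 CPM in controls and 60.9 to 261 CPM in HD. The part of these cells in the lower Ddit4l was not tested. The other 7 members in the same libraries had log2 fold changes from −0.54 (Deptor) to 0.24 (Sesn2). The Gad2-line total RNA of the cerebrum, of mice that also gave these IPs, held 10.8, 16.2 and 17.3 CPM of Ddit4l in controls and 5.8, 9.76 and 11 CPM in HD, in the order of their replicate numbers. These numbers paired HD with control libraries in this set alone, and HD was lower in 3 of 3 pairs, although the highest HD library passed the lowest control. In the same order, striatal markers summed to 906, 1293 and 1482 CPM in controls and 589, 801 and 1160 CPM in HD. Oligodendrocyte markers summed to 4969, 5003 and 6018 CPM and 4188, 4586 and 4556 CPM, without overlap, and microglial markers overlapped. The part of these cells was not tested.

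**Figure D1:**
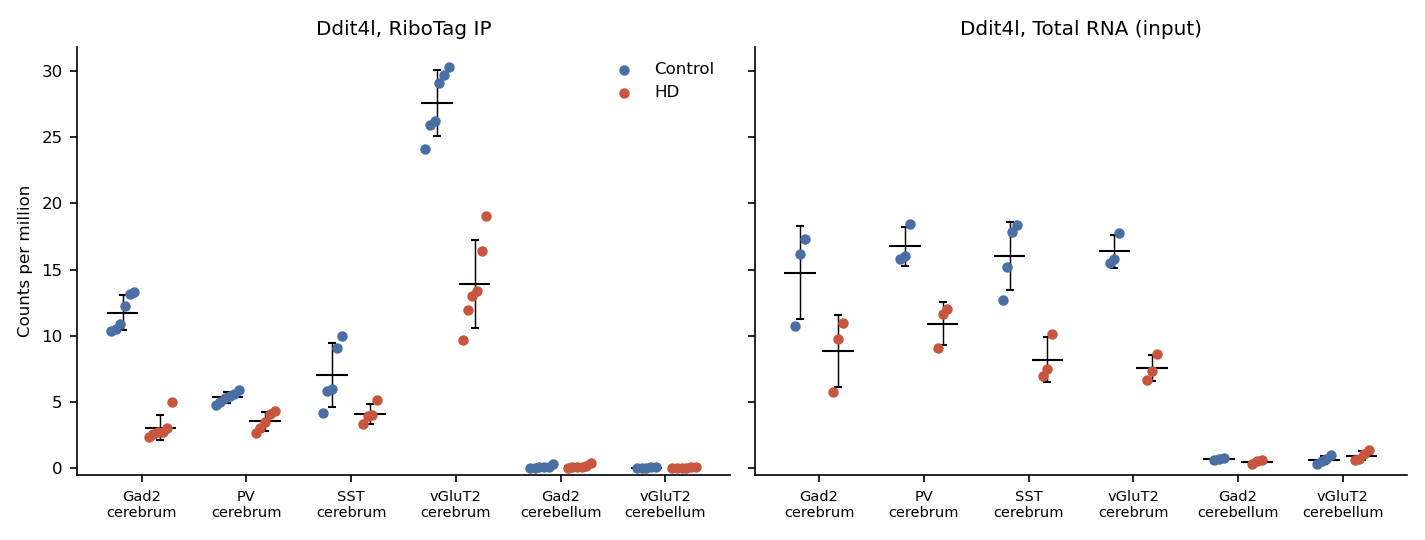
Level of Ddit4l in every library, in CPM, for RiboTag IPs (left) and total RNA (right) of each Cre line and region; each point is 1 library, horizontal bars are means and error bars are standard deviations. Control and HD points do not overlap in the Gad2, PV and vGluT2 IPs of the cerebrum, and cerebellar libraries of either kind stay at or below 1.42 CPM.

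Total RNA of the cerebrum from the other 3 lines came from mice that had no part in the choice, and Ddit4l fell there. In the PV line it was at 16, 15.8 and 18.4 CPM in controls and at 9.05, 12 and 11.6 CPM in HD mice. In the SST line it was at 18.4, 15.2, 17.8 and 12.7 CPM in controls and at 7.5, 7 and 10.1 CPM in HD mice. In the vGluT2 line it was at 17.8, 15.5 and 15.8 CPM in controls and at 7.33, 6.71 and 8.66 CPM in HD mice. In each line every HD library lay below every control library, 9 of 9 in all. Control SST replicates 3 and 4 were of mice (Z58 and Z59) whose identifiers do not share the prefix of the HD mice. With line as a covariate the log2 fold change was −0.86 (SE 0.106, adjusted p = 0.000733, edgeR), and Ddit4l was the only one of 8 members called, against 0.33% of 14827 genes. With the replicate number as a block it was −0.90 (adjusted p = 0.0128), and over all alternatives the adjusted p ran from 5.26e-11 to 0.9999. The call was lost without the SST line (−0.81, adjusted p = 0.148) and in each line alone (PV −0.58, SST −0.97 and vGluT2 −1.04, adjusted p from 0.502 in edgeR). It was kept on leaving out each of the 19 libraries in turn.

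In a tissue homogenate, fewer cells that express a gene and less of its RNA per cell cannot be told apart. Of 10 markers of striatal projection neurons, 9 had a log2 fold change below 0 in the same comparison and 3 were called lower, with a median of −0.55 against 0.02 over all genes. Their summed level was 1224 to 2043 CPM in the control and 869 to 1252 CPM in the HD libraries of the PV line, 1053 to 1522 against 849 to 1170 CPM in the SST line, and 1298 to 1664 against 737 to 860 CPM in the vGluT2 line. Ppp1r1b was the most abundant of them in each of these 6 groups and none of the 10 was at 0. Glutamatergic markers, led by Slc17a7, did not overlap in the vGluT2 line (1767 to 2385 against 1404 to 1758 CPM), nor did PV interneuron markers, led by Syt2, in the PV line (359 to 406 against 290 to 332 CPM), with none at 0. Oligodendrocyte markers had 1 of 6 called lower. The part of these cells in the lower Ddit4l of total RNA was not tested either. With the balance of long and short genes as a covariate the log2 fold change of Ddit4l in cerebral total RNA was −0.87 (adjusted p = 6.61e-05, edgeR, within the range above), and without the 3 mice it was −0.84 (adjusted p = 0.00254).

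In the vGluT2 IPs of the cerebrum, where Ddit4l was most abundant, the 6 control libraries had a lowest, median and highest level of 24.1, 27.7 and 30.3 CPM, and the 6 HD libraries of 9.68, 13.2 and 19 CPM. No HD library reached a control library. The log2 fold change of −0.98 (SE 0.15) did not pass in edgeR (adjusted p = 0.0829). In that test 0 of 8 members and 1 of 14354 genes (0.00697%) were called, with 1 member and 1045 genes at an unadjusted p under 0.05. Ddit4l passed in DESeq2 (−0.98, adjusted p = 1.29e-05), which called 1 of 8 members and 25 genes in all, and it passed in edgeR without the re-sequenced HD library, the highest of the 6 (−1.09, adjusted p = 0.0138). Over the alternatives its adjusted p ran from 1.29e-05 to 0.487, and without the 3 mice whose libraries disagree it was −1.10 (adjusted p = 0.43). Striatal markers in these IPs summed to 414 to 537 CPM in controls and 309 to 397 CPM in HD, with no overlap, and their part in the lower Ddit4l was not tested.

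In PV IPs Ddit4l ranged from 4.75 to 5.94 CPM, with a median of 5.38 CPM, in 6 control libraries, and stood at 3.51, 2.67, 4.13, 4.33 and 3.06 CPM in 5 HD libraries. The groups did not overlap. The log2 fold change of −0.61 (SE 0.146) had an adjusted p of 0.381 in edgeR and of 0.0435 in DESeq2, which called 1 of 8 members and 42 genes in all. In edgeR 0 of 8 members were called, beside 0.034% of 14713 genes, with 2 members and 630 genes at an unadjusted p under 0.05. Over the alternatives the adjusted p ran from 0.0435 to 1. HD replicate 3, the library rich in Purkinje markers, had the lowest value, and without it the fold change was −0.52 (adjusted p = 0.758). Striatal markers summed to 386 to 520 CPM in control and 277 to 369 CPM in HD PV IPs, with no overlap, and their part was not tested.

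In SST IPs control libraries held 6.02, 9.99, 5.83, 4.2 and 9.12 CPM of Ddit4l and HD libraries 3.38, 3.93, 5.18 and 4.06 CPM. The HD values overlapped the lowest control value. The log2 fold change was −0.75 (SE 0.263, adjusted p = 0.9996, edgeR), and −0.92 with only the mice whose identifiers share the prefix of the HD mice, which leaves out 3 of 5 controls. In this comparison 0 of 8 members and 0 of 14689 genes (0%) were called by edgeR, with 1 member and 207 genes at an unadjusted p under 0.05, and DESeq2 called 0 members and 2 genes. Striatal markers summed to 601 to 782 CPM in control and 486 to 577 CPM in HD SST IPs, with no overlap, and their part was not tested.

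Ddit4l was nearly silent in the cerebellum. Its level was at most 0.317 CPM in control and 0.394 CPM in HD Gad2 IPs, and at most 0.109 and 0.101 CPM in control and HD vGluT2 IPs, so it was not tested there. In Gad2-line total RNA of the cerebellum it was at 0.694, 0.801 and 0.647 CPM in controls and 0.344, 0.548 and 0.635 CPM in HD, without overlap. In the vGluT2 line it was at 1.004, 0.69, 0.326 and 0.567 CPM in controls and 0.644, 1.11, 1.42 and 0.698 CPM in HD, with overlap. The log2 ratios of means were thus −0.49 and 0.58, a difference between lines that was not tested, and the HD effect over both lines was 0.07 (SE 0.300, adjusted p = 0.868, edgeR). In the test of the difference between the HD effects in vGluT2 IPs of cerebellum and cerebrum Ddit4l passed the filter only through its level in the cerebrum, so no value is given for it. Of the other 7 members edgeR called 0 there, against 0.323% of 14253 genes, and DESeq2 called 0. At an unadjusted p under 0.05 were 0 of the 7 members and 1062 genes.

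Among control IPs the order of mean Ddit4l levels was vGluT2 cerebrum (27.5 CPM, SD 2.49), Gad2 cerebrum (11.8, SD 1.32), SST (7.03, SD 2.43), PV (5.35, SD 0.429), Gad2 cerebellum (0.104, SD 0.117) and vGluT2 cerebellum (0.062, SD 0.0344). The step from vGluT2 to Gad2 in the cerebrum was 1.24 on the log2 scale (SE 0.211, adjusted p = 5.63e-06, edgeR, with 29.2% of 14759 genes called), and that from Gad2 to SST was 0.67 (SE 0.223, adjusted p = 0.0105, 51.6% called). SST and PV IPs did not differ by the same test (0.39, adjusted p = 0.258, 14.8% called). The cerebellar IP groups, with at most 13 (Gad2) and 4 (vGluT2) counts per control library, were too low for a test against any group, and their levels are given as a description. Without the 3 mice whose libraries disagree the step from vGluT2 to Gad2 in the cerebrum was 1.32, and the calls named here were kept.

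Set against total RNA of the same line and region, control Ddit4l was 0.77 higher on the log2 scale in the vGluT2 IPs of the cerebrum (SE 0.263, adjusted p = 0.0121, edgeR; 53.9% of genes called). It was lower in PV IPs (−1.57, adjusted p = 9.61e-07; 57.2% called) and in SST IPs (−1.14, adjusted p = 0.000128; 53.3% called). Gad2 IPs of the cerebrum did not differ from their total RNA (−0.34, adjusted p = 0.284; 41.4% called). The call in vGluT2 IPs was lost without the total RNA of control vGluT2 cerebrum replicate 2 (0.71, adjusted p = 0.0567). Many IP and total RNA libraries came from the same mice, and mouse was not a block in these tests for any member. The part of the balance of long and short genes in these differences was not tested.

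The genes whose mean levels over the 12 control groups were most like those of Ddit4l, by Pearson r of the log2 of CPM plus 1, were Cobl (0.996), Nrgn (0.991), Mast3 (0.991), Ctxn1 (0.991) and Il34 (0.989), of 14759 genes compared. This is a description over 12 groups that mix cerebrum with cerebellum and IPs with total RNA. Nrgn, which encodes the postsynaptic calmodulin-binding protein neurogranin, had the order of Ddit4l in the cerebrum, at 2636 CPM in the vGluT2 IPs of the cerebrum, 979 in Gad2, 285 in SST and 141 in PV IPs. In cerebellar IPs it was at 43.8 CPM in vGluT2, where the SD of 94.2 exceeded the mean, and 14.7 CPM in Gad2, and no order was read from these. In HD vGluT2 IPs of the cerebrum Nrgn was at 2616 CPM (SD 444) and Cobl, an actin nucleator, at 109 CPM (SD 18.5) against 129 CPM (SD 13.6) in controls.

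**Figure D2:**
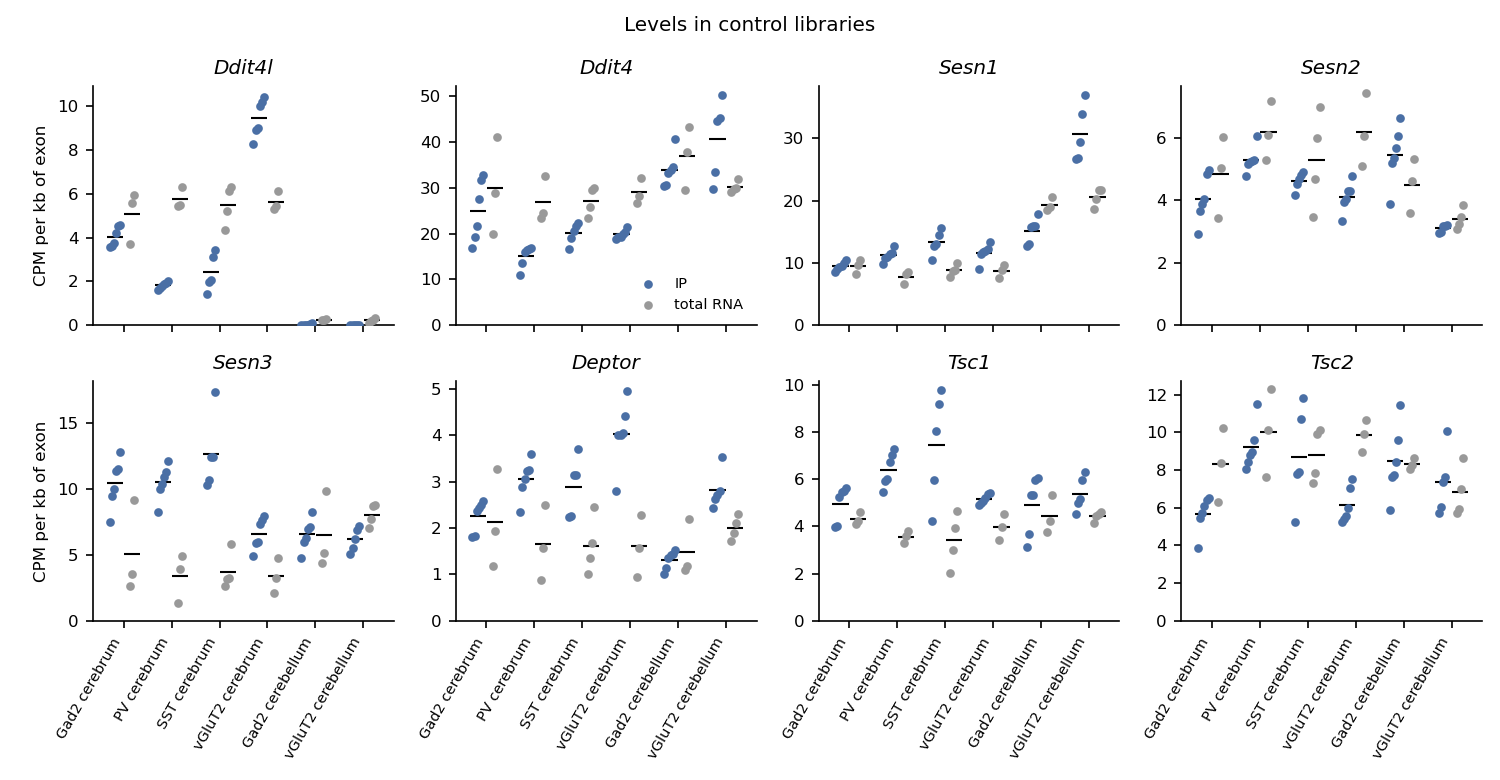
Levels of the 8 members in control libraries, in CPM per kilobase of exon, for IPs (blue) and total RNA (grey) of each line and region; each point is 1 library and bars are means. Ddit4l spans from 0.0213 to 9.45 CPM per kb across IPs, and Ddit4 has the highest mean of the 8 members in each of the 6 IP groups.

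Ddit4 encodes REDD1, the relative of REDD2 induced by hypoxia, glucocorticoids and DNA damage. Per kilobase of exon it was the most abundant member in all 6 control IP groups, from 15.1 CPM per kb in PV IPs to 40.6 CPM per kb in the vGluT2 IPs of the cerebellum. In CPM the means ran from 26.5 in PV IPs through 34.8 (vGluT2 cerebrum), 35.2 (SST), 43.8 (Gad2 cerebrum) and 59.4 (Gad2 cerebellum) to 71.3 (vGluT2 cerebellum). Of neighbours in that order, Gad2 cerebellum exceeded Gad2 cerebrum (0.44, SE 0.140, adjusted p = 0.00716, edgeR, 53.3% of genes called) and vGluT2 cerebrum exceeded PV (0.33, SE 0.140, adjusted p = 0.0404, 56.5% called), and the other 3 neighbours did not differ by the test. The Gad2 IPs of cerebellum and cerebrum came from the same mice, and mouse was not a block in this test. The order of Ddit4 was thus not that of Ddit4l, with which it had a Pearson r of −0.57 over the 12 control groups. Ddit4 was lower in IPs than in total RNA for PV (−0.75, adjusted p = 0.000208), SST (−0.39, adjusted p = 0.0369) and vGluT2 of the cerebrum (−0.53, adjusted p = 0.007). Without the 3 mice the last of these calls was lost (−0.39). The part of the balance of long and short genes in these differences was not tested.

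In the Gad2 IPs of the cerebrum the range was 29.8 to 57.5 CPM in controls and 36.2 to 68.4 CPM in HD. Log2 fold changes in the other 5 IP comparisons ran from −0.21 (cerebellar Gad2, SE 0.115) to 0.05 (cerebral vGluT2, SE 0.0918), none called. In total RNA they were −0.21 in the cerebrum (SE 0.0897, adjusted p = 0.708, edgeR) and 0.14 in the cerebellum (SE 0.110, adjusted p = 0.321, edgeR), not called. In the vGluT2 line alone Ddit4 did not overlap in either region, at 47 to 56.5 CPM in control and 35.9 to 38.3 CPM in HD total RNA of the cerebrum, and at 51.2 to 56.1 and 61.5 to 70.8 CPM in that of the cerebellum. The median balance of long and short genes in these libraries was 0.475 in control and 1.10 in HD of the cerebrum, with overlap. In the cerebellum it was 1.41 and 0.65, without overlap. Ddit4 has 1755 bases of exon, the fewest of the 8 members. Neither the part of this balance in its values nor the difference between these regions was tested.

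The 3 sestrins differed from each other in where they were high. Sesn1, a p53 and FoxO target, reached 122 CPM (SD 17.9) in the vGluT2 IPs of the cerebellum, where granule cells prevail, against 60.6 CPM in cerebellar Gad2 IPs and 37.9 to 53 CPM in the cerebral IPs. Its step between the cerebellar IPs was 0.96 on the log2 scale (SE 0.116, adjusted p = 8.29e-10, edgeR; 55.7% of genes called), and PV exceeded Gad2 IPs in the cerebrum by 0.31 (adjusted p = 0.0169; 51.3% of genes called); the other 3 neighbours did not differ. Sesn2, which binds leucine and is a target of ATF4, was the least variable of the 3, from 10.8 CPM in cerebellar vGluT2 IPs to 19 CPM in cerebellar Gad2 IPs, and its highest neighbours, Gad2 cerebellum and PV (18.4 CPM), did not differ by the test (55.3% of genes called). Only its lowest neighbours did (Gad2 cerebrum over vGluT2 cerebellum, 0.44, adjusted p = 0.00522; 61.2% called). Sesn3, a FoxO target, was highest in SST IPs (193 CPM, SD 43), PV (160 CPM) and Gad2 IPs of the cerebrum (159 CPM), and lower in vGluT2 IPs of the cerebrum (101 CPM), the step from Gad2 to vGluT2 being 0.65 (adjusted p = 0.0485). Without the 3 mice the Sesn1 step between the cerebellar IPs was 0.94 and still called, and the calls for PV over Gad2 (Sesn1, 0.24), Gad2 cerebrum over vGluT2 cerebellum (Sesn2, 0.38) and Gad2 over vGluT2 (Sesn3, 0.60) were lost.

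Against total RNA, Sesn3 was higher in all 4 cerebral IPs, by 0.97 (Gad2), 1.67 (PV), 1.80 (SST) and 0.98 (vGluT2) on the log2 scale, with adjusted p from 5.73e-06 to 0.0139 in edgeR. Sesn1 was higher in PV (0.60), SST (0.64) and both vGluT2 IPs (0.43 in the cerebrum and 0.46 in the cerebellum, where 51.2% of genes were called) and lower in cerebellar Gad2 IPs (−0.39; 48.2% called), and Sesn2 was lower in cerebral vGluT2 IPs (−0.57, adjusted p = 0.00192). The balance of long over short genes also differed between these libraries, with medians of 1.46 in PV IPs and 0.72 in PV total RNA, 1.62 and 0.61 for SST, and 1.21 and 0.475 for vGluT2 of the cerebrum. For Gad2 of the cerebrum the medians were 0.95 and 0.70. In the cerebellum they were 1.29 and 0.90 for Gad2, and 1.35 and 1.41 for vGluT2. Sesn3 has 15269 bases of exon, the most of the 8 members, and Ddit4 has 1755, the fewest. The part of this balance in the IP to total RNA differences of the members was not tested. The Gad2 calls for Sesn3 were lost without control total RNA replicate 2 (0.75) or 3 (0.63), and the vGluT2 calls without control total RNA replicate 1 (Sesn1 0.34, Sesn2 −0.41, Sesn3 0.74). Without the 3 mice only the vGluT2 call for Sesn3 (0.84) was lost of these.

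No sestrin was called in an HD comparison of IPs, where log2 fold changes outside the Gad2 IPs of the cerebrum ran from −0.23 (Sesn1, cerebral vGluT2, SE 0.123) to 0.23 (Sesn2, cerebellar vGluT2, SE 0.111). The Sesn2 value came from 10.2, 11 and 11.2 CPM (lowest, median and highest of 5 control libraries) and 11.4, 12.3 and 13.7 CPM (6 HD libraries), which did not overlap, and had an adjusted p of 0.342 in edgeR. Without the 3 mice it was also 0.23. In the same IPs the 5 granule cell markers, led by Cbln3 with none at 0, summed to 7444 to 10215 CPM in control and 4646 to 7161 CPM in HD libraries, with no overlap. All 5 had a log2 fold change below 0 and 2 were called lower, Neurod1 (−0.87) and Cbln3 (−0.80), and their part in the members' values was not tested. In the Gad2 IPs of the cerebrum all 3 sestrins overlapped between HD and control.

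**Figure D3:**
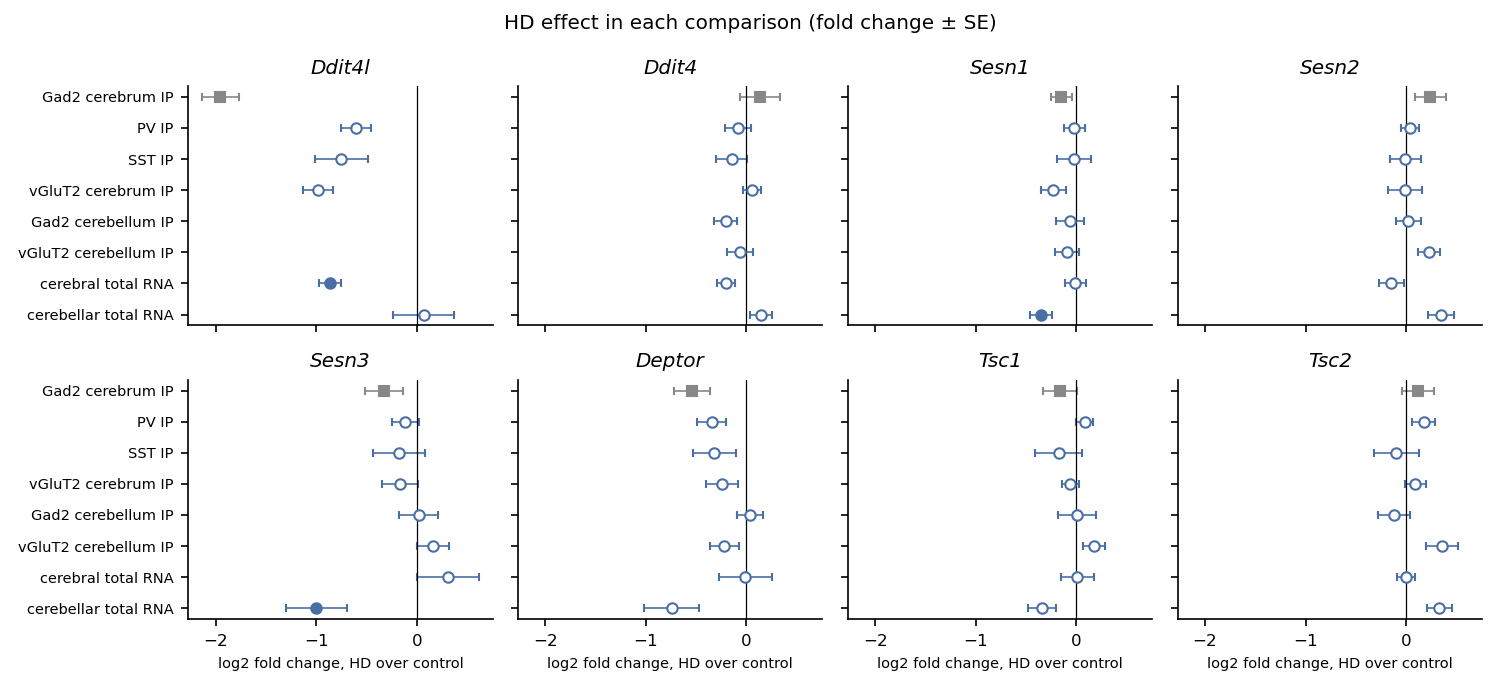
Log2 fold change of HD over control for each member, with its standard error, in 6 IP and 2 total RNA comparisons; filled points were called, open points were not, and grey squares mark the comparison the genes were chosen from. Ddit4l lies left of 0 in the 4 cerebral IPs and in cerebral total RNA (−0.86), and Sesn1 (−0.35) and Sesn3 (−0.998) are filled in cerebellar total RNA.

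Beside cerebral total RNA, and with the Gad2 IPs of the cerebrum set aside, cerebellar total RNA was the other HD comparison in which edgeR called members with all libraries. DESeq2 also called Ddit4l in PV and cerebral vGluT2 IPs. Sesn3 was at 132, 118, 107.6 and 134 CPM in the 4 control and at 47.6, 49.7, 39.1 and 42.8 CPM in the 4 HD libraries of the vGluT2 line. In the Gad2 line it was at 78.9, 150 and 67.2 CPM in controls and 68.3, 50.1 and 135 CPM in HD. The groups were wide apart in the vGluT2 line and overlapped in the Gad2 line. Over both lines Sesn3 was called (−0.998, SE 0.302, adjusted p = 0.0358, edgeR), as was Sesn1 (−0.35, SE 0.11, adjusted p = 0.0382), 2 of 8 members against 24.5% of 14477 genes, so that the members' share was near that of all genes. Neither was called with the replicate number as a block (Sesn3 −1.06, adjusted p = 0.121; Sesn1 −0.35, adjusted p = 0.129) or without the 1 library here of a mouse whose libraries disagree, control vGluT2 replicate 2 (−0.96 and −0.32). Replicate numbers did not pair HD with control libraries here, so the loss with the block alone does not decide whether the calls hold. Over all alternatives the adjusted p ran from 7.24e-05 to 0.9999 for Sesn3 and from 0.00231 to 0.9999 for Sesn1.

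With the balance of long and short genes as a covariate the log2 fold changes were −0.16 (Sesn3, adjusted p = 0.643) and −0.13 (Sesn1, adjusted p = 0.621) in edgeR, and 71 genes were called in place of 3544. In the Gad2 line alone they were −0.22 and −0.11, not called, and in the vGluT2 line alone −1.59 and −0.53, with 7565 genes called. In the vGluT2 line HD and this balance cannot be told apart. The calls for both genes were also lost on leaving out any of 10 single libraries for Sesn3 and 11 for Sesn1, of 14, and the count of called genes then ran from 96 to 7408. In cerebral total RNA Sesn3 was at 0.31 (SE 0.306, adjusted p = 0.95, edgeR), with 32.4, 49.2 and 72.8 CPM in control and 147, 54.3 and 88.1 CPM in HD libraries of the vGluT2 line, which overlapped. The difference between the regions was not tested.

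Markers of other cells also separated the vGluT2-line libraries. Purkinje cell markers summed to 4256 to 4889 CPM in control and 2704 to 3052 CPM in HD libraries, and oligodendrocyte markers to 4220 to 4958 and 3008 to 4170 CPM. Microglial markers were at 73.5 to 85.9 CPM in control and 129 to 143 CPM in HD, glutamatergic markers at 602 to 868 and 1370 to 1550 CPM, and PV interneuron markers at 1384 to 1808 and 1973 to 2677 CPM. None of these 5 lists overlapped between the groups, the other 6 lists did, and no gene of the 5 was at 0. The most abundant genes in controls were Itpr1, Mbp, Csf1r, Slc17a7 and Pvalb. Over both lines 2 of 5 Purkinje and 2 of 6 oligodendrocyte markers were called lower, and 3 of 5 microglial and 1 of 5 glutamatergic markers higher. In the Gad2 line Purkinje markers were at 3981 to 4671 CPM in control and 3074 to 3949 CPM in HD, and oligodendrocyte markers at 3759 to 4408 and 2797 to 2997 CPM, without overlap. GABAergic (751 to 805 against 621 to 708 CPM) and SST interneuron markers (235 to 286 against 153 to 193 CPM) did not overlap there either, and the other 7 lists did, among them the microglial, glutamatergic and PV interneuron lists. The part of these cells in the values of the members was not tested.

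Sesn2 and Tsc2 were higher in HD in the same vGluT2-line libraries. Sesn2 was at 12.1, 11.3, 13.4 and 10.7 CPM in controls and 22.1, 16.6, 20 and 18.3 CPM in HD, and Tsc2 at 57.3, 67.5, 83 and 55 CPM in controls and 125, 98.2, 106 and 93.9 CPM in HD. Neither overlapped there, with HD means at 162% and 161% of control, and both overlapped in the Gad2 line. Over both lines Sesn2 was at 0.35 (SE 0.131, adjusted p = 0.0592 in edgeR and 0.047 in DESeq2) and Tsc2 at 0.33 (SE 0.127, adjusted p = 0.0623 in edgeR and 0.0523 in DESeq2). With the balance of long and short genes as a covariate they were at 0.11 and 0.18. Tsc1 was at 53.4, 54.6, 52.6 and 49.2 CPM in controls and 53.1, 32.4, 35.7 and 37.1 CPM in HD of the vGluT2 line, which overlapped. Over both lines it was at −0.34 (SE 0.135, adjusted p = 0.0708 in edgeR and 0.0498 in DESeq2), and at −0.14 with the covariate.

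**Figure D4:**
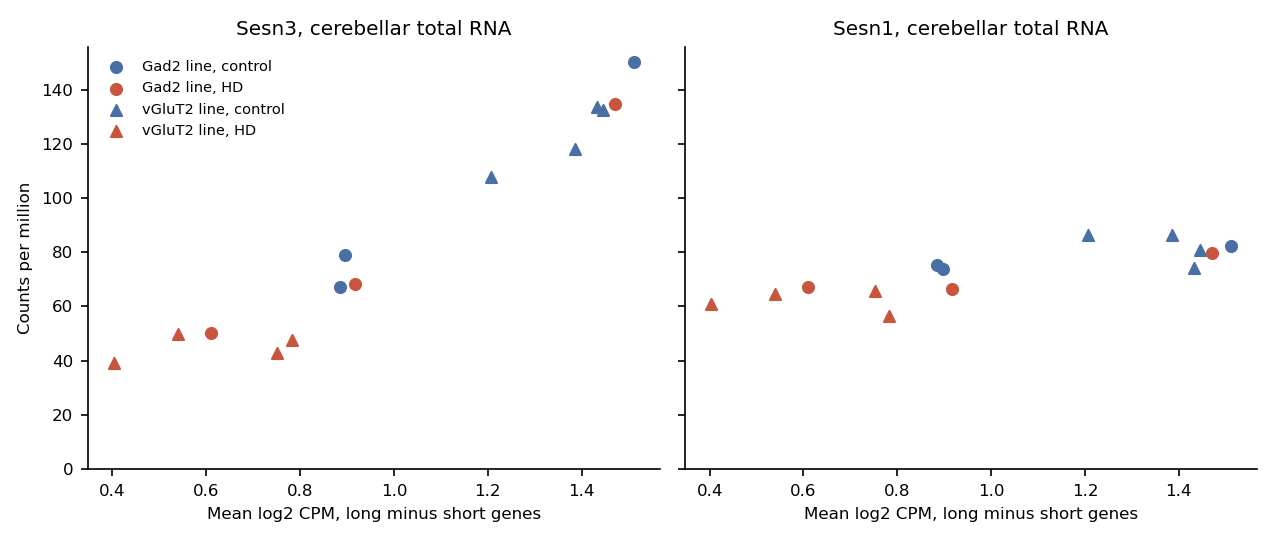
Levels of Sesn3 and Sesn1 in cerebellar total RNA, in CPM, against the mean log2 level of long genes minus that of short genes in the same library; circles are Gad2-line and triangles vGluT2-line libraries, blue control and red HD. Sesn3 runs from 67.2 to 150 CPM in control and from 39.1 to 135 CPM in HD libraries, and the 4 HD libraries of the vGluT2 line all lie at its low end, from 0.40 to 0.78.

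Deptor encodes the inhibitor that sits on the mTOR kinase. Its control level was highest in the vGluT2 IPs of the cerebrum (35.8 CPM, SD 6.31), followed by PV (27.1), SST (25.7), vGluT2 cerebellum (25), Gad2 cerebrum (20) and Gad2 cerebellum (11.6). Neighbours differed by the test only at the end of that order, between Gad2 of cerebrum and cerebellum (0.79, SE 0.232, adjusted p = 0.00372, edgeR). Those Gad2 groups shared their mice, and mouse was not a block in the test. Deptor was higher in IPs than in total RNA for PV (0.94), SST (0.87) and cerebral vGluT2 (1.34, adjusted p = 0.0002), and the PV call was lost without control PV total RNA replicate 3 (0.72). Its log2 fold changes in HD in the other cerebral IPs were −0.35 in PV (SE 0.144), −0.32 in SST (SE 0.215) and −0.24 in vGluT2 IPs (SE 0.160), with unadjusted p of 0.0318 for PV and no call in edgeR or DESeq2. In cerebellar IPs the log2 ratio of HD to control means was 0.06 for Gad2 and −0.25 for vGluT2, with overlap in both and no call. In PV IPs the lowest, median and highest levels were 20.7, 27.9 and 31.9 CPM in control and 18.3, 19.2 and 27.2 CPM in HD libraries, which overlapped. In the Gad2 IPs the levels were 16.1 to 22.9 CPM in controls and 10.3 to 18.5 CPM in HD (log2 fold change −0.54). Total RNA of the cerebrum showed −0.01 (SE 0.264), over libraries that ranged from 7.02 to 22.9 CPM, and that of the cerebellum −0.74 (SE 0.271, adjusted p = 0.0549 in edgeR and 0.0212 in DESeq2). In the vGluT2 line of the cerebellum it was at 15.4 to 20.3 CPM in controls and 5.66 to 9.54 CPM in HD, and with the balance of long and short genes as a covariate the value over both lines was 0.03. Over all alternatives the adjusted p ran from 0.000602 to 0.9999. DESeq2 called 5 of 8 members in cerebellar total RNA, 1 higher and 4 lower, beside 4977 of 14477 genes, and 6 members and 6423 of these genes had an unadjusted p under 0.05.

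Tsc1 and Tsc2, the partners of the TSC complex, varied least between cell types. Tsc1 means ran from 58.2 CPM in cerebellar Gad2 IPs to 88 CPM in SST IPs, 1.51-fold, and Tsc2 means from 54.5 CPM in Gad2 IPs of the cerebrum to 88.8 CPM in PV IPs, 1.63-fold. No neighbours in either order differed by the test. Per kilobase Tsc2 exceeded Tsc1 in all 6 groups, with 5.67 against 4.96 CPM per kb in Gad2 IPs of the cerebrum and 9.23 against 6.40 CPM per kb in PV IPs. Tsc1 was higher in IPs than in total RNA for PV (0.92) and SST (1.17), and Tsc2 lower for Gad2 (−0.57) and vGluT2 of the cerebrum (−0.66). Tsc2 shares 693 exon bases with Pkd1 on the opposite strand. In HD IPs outside the cerebral Gad2 libraries, Tsc1 fold changes ran from −0.17 (SST) to 0.17 (cerebellar vGluT2) and Tsc2 from −0.12 (cerebellar Gad2) to 0.36 (cerebellar vGluT2, SE 0.156, adjusted p = 0.286, edgeR), none called. The Tsc2 libraries in that last comparison overlapped, at 55 to 97.1 CPM in controls and 65.1 to 105 CPM in HD, and without the 3 mice the value was 0.48, not called.

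In the cerebellar IPs, of which the Gad2 ones came from the same mice as those of the cerebrum, 7 of the 8 members passed the filter on low counts, Ddit4l being the exception, and 0 were called in either. The background was 0.0142% of 14098 genes in Gad2 and 2.11% of 13487 genes in vGluT2 IPs, the latter 285 genes, or 22 without the 3 mice whose libraries disagree. The test of the difference between the HD effects of these 2 cell types called 0 of 7 members and 0.107% of 13971 genes. The number of members with an unadjusted p under 0.05 was 0 in the Gad2 IPs, 1 in the vGluT2 IPs and 0 in their difference. Over all genes it was 324 of 14098, 2090 of 13487 and 989 of 13971. DESeq2 called 0, 0 and 0 members.

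The members did not move as a block across control cell types. Over the 12 control groups the highest Pearson r between 2 members was 0.87 (Sesn3 with Tsc1), followed by 0.77 (Sesn2 with Tsc2) and 0.71 (Deptor with Tsc1), and the lowest was −0.87 (Ddit4l with Sesn1). These are a description over groups that in part share mice and that differ in the long to short balance. The groups also mix cerebrum with cerebellum and IPs with total RNA. Genes most like the others were Pml (0.948) for Ddit4, Pan3 (0.991) for Sesn1, Coasy (0.959) for Sesn2, Efcab2 (0.975) for Sesn3, Grin2a (0.961) for Deptor, Zswim9 (0.971) for Tsc1 and Aatk (0.957) for Tsc2; Mtor itself was second for Tsc2 (0.956).

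The wider pathway was read from 8 lists of 142 genes: subunits of the mTOR complexes, amino acid sensing by the Rag GTPases, insulin, PI3K, AKT and AMPK input, mTOR substrates, and genes that respond to ATF4, p53, glucocorticoids or hypoxia. In the Gad2 IPs of the cerebrum 0 of 139 measured genes were called by edgeR, beside 4 of all 14342 genes, and 0 of the 139 by DESeq2. At an unadjusted p under 0.05 were 13 of the 139 and 1313 of all 14342 genes. The median log2 fold change was 0.03 against −0.01 over all genes, and the median in PV, SST and cerebral vGluT2 IPs was 0.00, −0.01 and 0.02. In cerebral total RNA, where Ddit4l fell, 0 of 140 were called by edgeR, and 1 by DESeq2, which called 137 genes in all. Of the 140, 9 had an unadjusted p under 0.05, beside 939 of all 14827 genes. Their median was −0.01 against 0.02 over all genes. By list, glucocorticoid-responsive genes had the lowest median there (−0.25), with 13 of 14 below 0 and none called by edgeR. The medians of the other lists ran from −0.06 to 0.06. The glucocorticoid list had medians of −0.13 in PV, −0.28 in SST, −0.17 in vGluT2 and −0.01 in Gad2 IPs of the cerebrum. A shift of this list was not tested. In cerebellar vGluT2 IPs 1 of 138 was called, against 2.11% of all genes. This was Castor2, a paralogue of the arginine sensor of the pathway (0.48, SE 0.111, adjusted p = 0.0408, edgeR), which was lost with the replicate block (0.46), without the 3 mice (0.59), and on leaving out any 1 library other than control replicate 5. DESeq2 called 4 of the 138 and 663 genes in all.

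In cerebellar total RNA 42 of 140 list genes were called, 23 higher and 19 lower, which is 30% against 24.5% of all genes. Those lower included Rictor, the defining subunit of mTOR complex 2 (−1.36, SE 0.397), Rps6kb1, the S6 kinase (−1.18, SE 0.362), Rragd, a Rag GTPase (−0.94, SE 0.240), and Pik3ca, a catalytic subunit of PI3K (−0.93, SE 0.291). Those higher included Maf1, a repressor of RNA polymerase III (0.63, SE 0.184), Chac1, an ATF4 target that degrades glutathione (0.63, SE 0.177), and Akt1s1, the mTOR inhibitor PRAS40 (0.58, SE 0.164). The p53 and glucocorticoid lists had 3 of 16 and 2 of 14 called, with Ccng1 (−1.04) and Hif3a (−1.54) the lowest, and the hypoxia list had Ldha (0.45) and Slc2a1 (0.39) called higher. With the replicate number as a block 0 of these 140 genes were called by edgeR (without the block 66 were at an unadjusted p under 0.05, beside 6423 of all 14477 genes, and 56 were called by DESeq2, of 4977 genes in all), and without the 3 mice 3 were. These calls share the libraries in which HD and the balance of long and short genes move together. Replicate numbers did not pair HD with control libraries here, so the loss with the block alone does not decide whether the calls hold.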

How the data were processed

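The values used are the estimated counts per gene that the authors deposited, made with STAR and Salmon on GRCm38.p6 and rounded here to whole numbers. The deposited table had 8.57% of values that were not whole, library totals of 21905238 to 107753596 (median 35866734) and ERCC spike-ins of at most 4.45%, which were left out. Gene types and exon lengths came from GENCODE M21, matched for 55141 genes.

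Comparisons used the quasi-likelihood test of edgeR 4.0.16 with TMM scaling in R 4.3.3. Genes tested were protein-coding and averaged more than 10 counts, and Benjamini-Hochberg adjusted p of 0.05 or less was called. Levels are CPM on 1 TMM scale over 106 libraries, and levels between genes were divided by exon length. SE was obtained as the size of the log2 fold change over the root of the F statistic. Correlations used the log2 of CPM plus 1. Figures were made with Python 3.11.15, numpy 2.4.6 and matplotlib 3.10.9.

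The members and lists were chosen with earlier results of these data known. Besides the members, genes were named from the lists when called, as the defining markers of a line, or as the genes most like a member in control levels. The marker and pathway lists were written from general knowledge of the field. Replicate numbers of HD and control libraries paired only in Gad2-line total RNA of the cerebrum, so pairs were used only as an alternative.

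Alternatives were DESeq2 1.42.0, its size factors, no filter on low counts, Xist class as a sex covariate, a replicate block, all IPs in 1 fit, mouse as a block, only the 2 groups compared, all 4 lines or no SST line in cerebral total RNA, SST mice of 1 identifier prefix, and each library left out. Y-linked transcripts as a covariate, the balance of long and short genes as a covariate, each line alone, and leaving out mice whose libraries disagree were chosen after seeing the data.

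Protein levels, phosphorylation by mTOR, and cell numbers were not measured here. Input groups of 3 or 4 libraries and the low counts of Ddit4l in the cerebellum limit what could be called there. IP libraries hold some RNA of other cells.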

Additional observations from a re-analysis of the deposited data

Results flagged for a closer look

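Single libraries stood apart from their group in 4 of 120 groups of a member, where chance gives about 1 in 20. Ddit4l was at 5.02 CPM in HD Gad2 cerebrum replicate 4 and at 0.394 CPM in HD Gad2 cerebellum replicate 2. Sesn1 was at 28 CPM in the re-sequenced HD vGluT2 library of the cerebrum, and Tsc1 at 38.4 CPM in HD Gad2 cerebellum replicate 1. The cause was not tested.

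Ddit4 in total RNA of the vGluT2 line had log2 ratios of HD to control means of −0.46 (cerebrum) and 0.31 (cerebellum). HD and control did not overlap in either region. The median balance of long and short genes was 0.475 in control and 1.10 in HD of the cerebrum. In the cerebellum it was 1.41 and 0.65, and its part in these values was not tested. The difference between the regions was not tested.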

How the results depend on the processing

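By DESeq2 the number of genes called moved from 4 to 75 in Gad2 IPs of the cerebrum, 5 to 42 in PV, 0 to 2 in SST, 1 to 25 in cerebral vGluT2, and in the cerebellum 2 to 22 (Gad2) and 285 to 663 (vGluT2). It moved from 49 to 137 in cerebral total RNA, from 15 to 67 for the cerebellar difference between cell types, and from 46 to 126 for the vGluT2 difference between regions. Ddit4l was then called in PV (−0.59) and cerebral vGluT2 IPs (−0.98).

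With the replicate block the counts were 9 in cerebral Gad2, 0 in PV, 1 in SST, 0 in vGluT2 IPs of the cerebrum, and in the cerebellum 0 (Gad2) and 108 (vGluT2). They were 23 in cerebral and 9 in cerebellar total RNA, 7 for the difference between cell types and 28 for that between regions.

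With all IPs in 1 fit the counts were 20 (Gad2), 0 (PV) and 5 (vGluT2) for the cerebrum and 13 (Gad2) and 548 (vGluT2) for the cerebellum. With Xist class they were 0 in PV, cerebral vGluT2 and cerebellar Gad2 IPs and 31 in cerebral total RNA. With Y-linked transcripts they were 14 in cerebral Gad2 and 0 in PV, cerebral vGluT2 and cerebellar Gad2 IPs. With DESeq2 size factors, and likewise with no filter, they were 0 in vGluT2 IPs of the cerebrum and 1 in Gad2 IPs of the cerebellum.

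With the balance of long and short genes the count was 257 in cerebral and 71 in cerebellar total RNA. In cerebral total RNA it was 0 in each line alone, 96 with all 4 lines and 3 without the SST line. Ddit4l was then not called in the PV (−0.58), SST (−0.97) or vGluT2 line alone (−1.04), or without the SST line (−0.81). In cerebellar total RNA it was 0 in the Gad2 and 7565 in the vGluT2 line.

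Without the mice whose libraries disagree the counts were 0 in cerebral vGluT2 IPs, 22 in cerebellar vGluT2 IPs, 104 in cerebellar total RNA, 6 for the difference between cell types and 10 for that between regions. With mouse as a block, 2494 genes differed between IP and total RNA in cerebral Gad2 and 4558 in cerebellar Gad2, where Ddit4l (−2.73) lost a call that its IP counts were too low to support.

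With single libraries left out the counts ran from 3 to 12 (Gad2), 0 to 4 (PV), 0 to 1 (SST) and 0 to 1 (vGluT2) for IPs of the cerebrum, and 0 to 3 (Gad2) and 149 to 255 (vGluT2) for those of the cerebellum. They ran from 29 to 79 in cerebral and 96 to 7408 in cerebellar total RNA, from 13 to 25 for the difference between cell types and from 32 to 67 for that between regions. Ddit4l ran from −1.09 to −0.88 in cerebral vGluT2 IPs, from 0.70 to 0.84 against total RNA there, and from 0.0548 to 1.16 between cerebellar IPs, where it was too low for a test to be read.

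No called value reversed. The same means the same direction and side of the threshold, or not called in both with either sign. Of 809 values for Ddit4l 799 were the same, 6 weaker and 4 stronger. Of 6139 for the other members 5975 were the same, 101 weaker and 63 stronger. For the pathway genes named in the text 268 of 643 were the same and 375 weaker. Among values not called, 310 had the other sign, 6 of them for Ddit4l in cerebellar total RNA. Xist class was not run in Gad2 IPs of the cerebrum, which had 1 class only, and the cause of these changes was not tested.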
